A study of Rattus norvegicus with 15 samples.

Results

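The solute carriers described here move glucose, fructose, phosphate, sulfate and dicarboxylates across the cells of the renal proximal tubule. They comprised 10 of the 10969 genes named on the arrays, Slc5a1, Slc5a2, Slc2a1, Slc2a2, Slc2a5, Slc34a1, Slc17a1, Slc13a1, Slc13a2 and Slc26a1, and every probe set whose platform annotation named one of them alone was taken, without regard to its signal. This gave 21 of the 26379 probe sets on 3 oligonucleotide array designs, called A, B and C here, of which 19 were on A, 1 on B and 1 on C. Total RNA came from kidneys of 5-week-old rats, and each design had 5 arrays, numbered by kidney from 1 to 5. On designs B and C the kidneys numbered 4 and 5 came from a strain congenic for chromosome 10 (n = 2), which carries a segment of that chromosome from another strain on the Dahl salt-sensitive background, and those numbered 1 to 3 from the Dahl salt-sensitive strain itself (Dahl S, n = 3), an inbred model of salt-induced hypertension. On design A, kidneys 1 to 3 were Dahl S (n = 3). The descriptions call kidneys 4 and 5 of design A Dahl S as well, although the same numbers are congenic on B and C, so their strain was treated as unsettled and each is given as a single value with no test. The labels give no salt diet, no sex and no donor strain, and do not say whether the kidneys came from separate animals, so the spread behind each p-value is that of these samples and may be technical.

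In the proximal tubule, sodium-coupled carriers of the brush border take up filtered glucose, phosphate and sulfate against their gradients, and carriers of the basolateral membrane let the solutes pass on to the blood. Glucose uptake is divided along the tubule between a high-capacity carrier in the early convoluted segments (Slc5a2, SGLT2) and a high-affinity carrier in the late straight segment (Slc5a1, SGLT1). Phosphate uptake through Slc34a1 is the main site at which parathyroid hormone and FGF23 set phosphate excretion.

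Among these transporters no strain difference passed the test where one could be made, and their spread between Dahl S kidneys was near that of other probe sets. Slc2a1 was the 1 member present on all 3 designs, and in congenic kidneys it was at 1.15 times the Dahl S level on B and at 0.889 times on C, neither past the threshold. On A, both Slc5a1 probe sets were higher in kidneys 4 and 5 than in all 3 Dahl S kidneys, as were 8.82% of all tested probe sets. Of the 5 Slc34a1 probe sets 3, and the Slc13a2 probe set, were lower in kidney 5 than in all 3 Dahl S kidneys. Kidney 5 was so for 22.7% of all tested probe sets. Another Slc34a1 probe set, AB013453_at, went the other way and was higher in kidneys 4 and 5 than in all 3 Dahl S kidneys. Slc13a2, which lies on chromosome 10, had the widest range of the members tested. Its signal was 1157 in kidney 4 and 502 in kidney 5, against 947 to 1235 in Dahl S kidneys.

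Values are the deposited signal intensity, on a linear scale. A floor was set at the 25th percentile of the signal of each design, which was 85.1 for A, 140.1 for B and 153.6 for C. Probe sets with a mean at or above the median signal of the design, 319.5 for A, 485.8 for B and 510.3 for C, are called tested. The medians of single arrays were 294.5 to 334.3 for A, 472.8 to 519.5 for B and 491.3 to 524.4 for C. Of the 21 member probe sets 19 were tested, and the exceptions were Slc2a2 and 1 of the 3 probe sets of Slc17a1. Signal was not compared between probe sets, since each binds its target with its own efficiency. Whole kidney was measured, so that fewer cells of a type and less RNA per cell cannot be told apart. Of the proximal tubule markers, 8 of 10 genes were on A, and all 8 were tested, among them megalin (Lrp2), cubilin (Cubn) and the kidney androgen-regulated protein Kap. Their summed signal was 113338 in kidney 4 and 113732 in kidney 5 of design A, against 105212 to 123833 in Dahl S kidneys.

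Markers of 11 cell types or tissues were summed on each design that measured any, and those given later beside Slc5a1, Slc34a1 and Slc2a1 were picked after their values were seen. On A, 6 of the 11 sums had kidney 4 or 5 outside the Dahl S range. Collecting duct markers were above it in both kidneys, while thick ascending limb markers were just below it and blood markers above it in kidney 5. Leukocyte markers were below it in kidney 4, at 5376 against 6868 to 9256 in Dahl S kidneys. Of the 3 measured, Cd74 alone was tested and made up most of that sum, with 4924.5 in kidney 4. Of the others, Cd53 was below its Dahl S range in both kidneys. Ptprc was above its range in both, at 234.2 and 109.6 against 81.9 to 101.8. Adrenal markers, of which 1 of the 4 measured was tested, were above the Dahl S range in kidney 5, at 889 against 451 to 719 in Dahl S kidneys. Skeletal muscle markers, none of them tested, had 482 in kidney 4 and 941 in kidney 5, against 837 to 928 in Dahl S kidneys. The sums for the proximal tubule, late proximal tubule, distal convoluted tubule, glomerulus and liver lay within the Dahl S range in both kidneys. The glomerulus was measured by Wt1 alone, which was not tested and ran from 15.6, under the floor, to 149.0 in Dahl S kidneys. Of the 4 liver markers 1 was tested.

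Across the 17 tested member probe sets of A, the coefficient of variation among Dahl S kidneys 1 to 3 had a median of 11.5% and ran from 3.63% to 19.5%, against a median of 13.1% over all 4411 tested probe sets. The highest of the 5 arrays stood over the lowest by a median ratio of 1.46 for the members and of 1.45 for all tested probe sets. That ratio was under 1.5 in 10 of the 17 member probe sets (58.8%), and in 58.0% of all tested probe sets. Kidneys 4 and 5 both lay above the range of the Dahl S kidneys for 4 member probe sets, where 8.82% of all tested probe sets did, and both below it for 1, where 10.1% did. Together these were 5 of 17 probe sets, or 29.4%, against 19.0% of all tested probe sets of A. In kidney 4 alone, 6 member probe sets lay above the Dahl S range and 4 below it, where 21.7% and 32.5% of all tested probe sets did. In kidney 5 alone, 7 lay above it and 5 below, where 25.2% and 22.7% did.

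These positions depend on how the arrays are scaled. Scaling each array to a common median moved the difference of kidney 4 from the Dahl S mean up by a median of 0.15 on the log2 scale, and the position of kidney 4 or 5 relative to the Dahl S range changed on 9 of the 17 member probe sets. With it 5 member probe sets had both kidneys above the range and 0 below it, and over all tested probe sets 13.1% were above and 5.85% below. With quantile normalization the position changed on 1 of the 17, leaving 4 above and 0 below. Both Slc5a1 probe sets, M13979_at of Slc2a1 and AB013453_at of Slc34a1 had both kidneys above the Dahl S range under all 3 scalings.

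**Figure D1:**
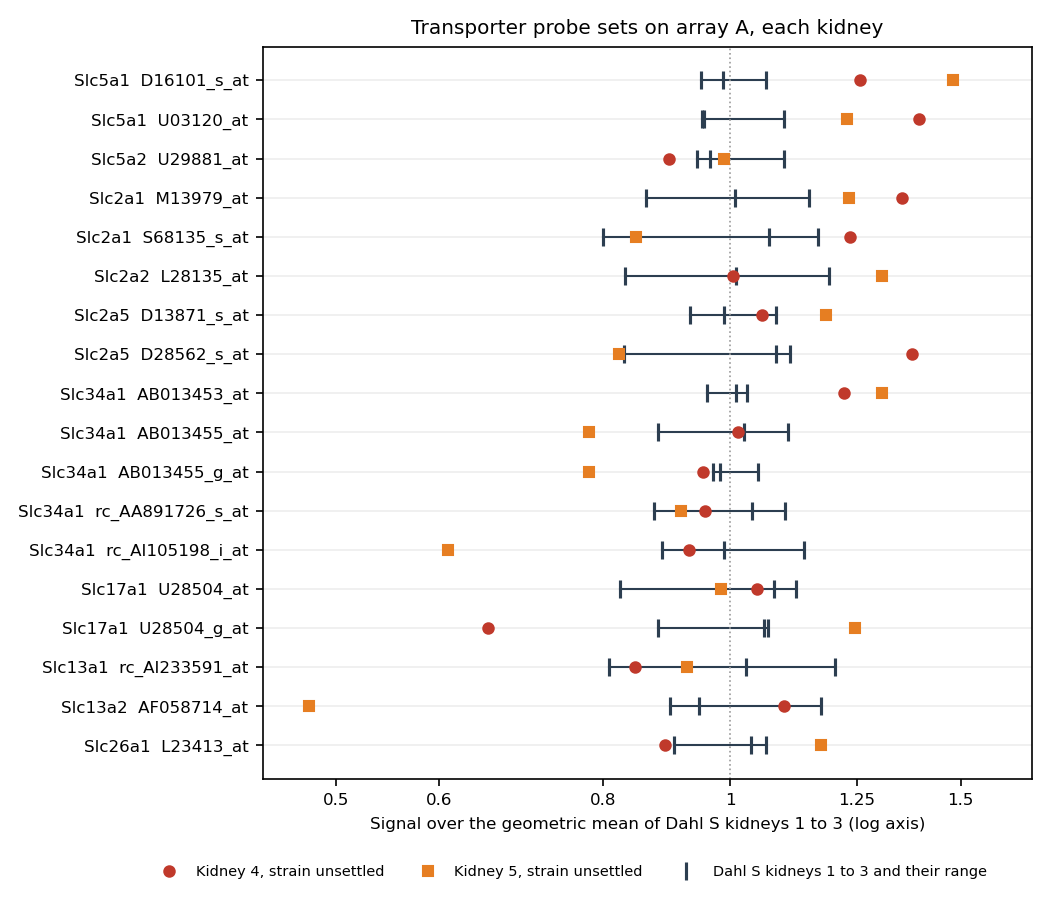
Each row is a transporter probe set of array A with signal above the floor, and the logarithmic horizontal axis gives the signal over the geometric mean of Dahl S kidneys 1 to 3. Points are kidneys 4 and 5, whose strain is unsettled, and ticks joined by a line are the 3 Dahl S kidneys and their range. Both Slc5a1 rows have kidneys 4 and 5 to the right of the Dahl S range, and Slc13a2 has kidney 5 farthest to the left, at 0.477 of that mean.

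Slc5a1 and Slc5a2 carry glucose with sodium across the brush border. For Slc5a1, the probe set U03120_at had a signal of 2178 in kidney 4 and 1919 in kidney 5, against 1487, 1494 and 1719 in Dahl S kidneys 1, 2 and 3 (mean 1567 ± 131.8, SD, n = 3). Its second probe set, D16101_s_at, had 774 in kidney 4 and 912 in kidney 5, against 609, 586 and 657 in Dahl S kidneys (617 ± 35.8). On both probe sets kidneys 4 and 5 stood above all Dahl S kidneys and did not overlap with them, at 1.39 and 1.23 times the geometric Dahl S mean on the first and 1.26 and 1.48 times on the second, so that the order of kidneys 4 and 5 differed between them. Slc5a2, the carrier that takes up most of the filtered glucose, had a signal of 1718 in kidney 4 and 1894 in kidney 5, against 2106, 1806 and 1847 in Dahl S kidneys (1919.5 ± 162.8). Kidney 4 was the lowest of the 5 and kidney 5 lay within the Dahl S range, a spread of 1.23-fold from lowest to highest that was the narrowest among the members tested. With median scaling kidney 4 lay within the Dahl S range (log2 difference −0.01 in place of −0.16).

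The higher Slc5a1 signal stood beside other measures of the same arrays. The 2 other genes of the late proximal tubule list on A, the aquaglyceroporin Aqp7 and the anion transporter Slc22a7, summed to 6511 in kidney 4 and 6251 in kidney 5, against 5966 to 6572 in Dahl S kidneys, and so lay within their range. The 6 collecting duct markers, all of them on A, 4 of them tested and none at 0, summed to 17152 in kidney 4 and 14458 in kidney 5, against 12175 to 13591 in Dahl S kidneys, and were higher in both. The water channels Aqp2 and Aqp3 were above the Dahl S range in both kidneys, Aqp2 with 8110 in kidney 4 and 6484 in kidney 5, against 5434 to 6094 in Dahl S kidneys. The anion exchanger Slc4a1 was above it in kidney 5 and within it in kidney 4. The sodium channel subunit Scnn1g, with 761 in kidney 4 and 684 in kidney 5, was within its Dahl S range of 746 to 804 in kidney 4. In kidney 5 it was below that range. Scnn1b, another subunit of that channel that was not tested, was above its range in both kidneys. It had 288.8 and 167.1, against 78.6, which is under the floor, to 95.8 in Dahl S kidneys. Aqp4, also not tested, was above its range in kidney 4 and within it in kidney 5. The ratio of the 3′ to the 5′ probe set of the GAPDH control was 1.04 in kidneys 4 and 5, against 1.06 to 1.07 in Dahl S kidneys. The part of these in the Slc5a1 values was not tested.

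**Figure D2:**
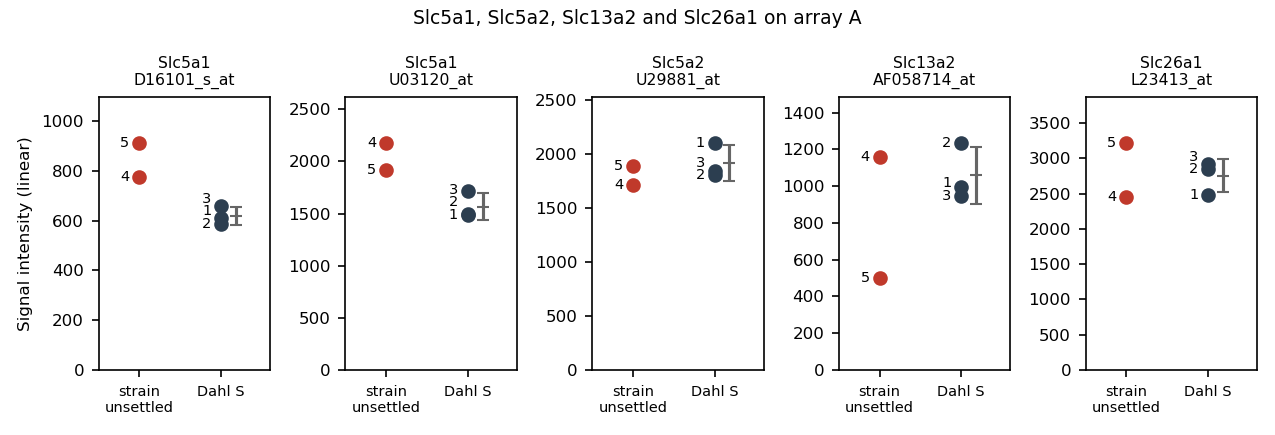
Linear signal intensity on array A, with a separate axis from 0 for each probe set. Numbered points are kidneys, kidneys 4 and 5 on the left and Dahl S kidneys on the right, with the Dahl S mean and SD (n = 3) as a bar beside them. Slc5a1 is higher in kidneys 4 and 5 on both probe sets, Slc5a2 spans 1.23-fold, and Slc13a2 is low in kidney 5 alone, at 502.

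Slc2a1 (GLUT1) is a facilitative glucose carrier of most cell types, found in the kidney at the basolateral side of the late proximal and more distal segments and in glomeruli. It was the 1 member measured on B and C and so the 1 member for which the strains could be compared. On B its probe set rc_AI008668_s_at had a signal of 3397 and 3183 in congenic kidneys 4 and 5, against 2636, 3014 and 2942.5 in Dahl S kidneys 1, 2 and 3. Both congenic kidneys stood above the 3 Dahl S kidneys, as did those of 7.73% of the 4385 tested probe sets of B, while 9.44% had both below. The means were 3290.0 ± 151.9 in congenic kidneys (SD, n = 2) and 2864 ± 200.6 in Dahl S kidneys (SD, n = 3), a log2 difference of 0.20 (SE 0.14, 95% confidence interval −0.12 to 0.53) that did not pass limma's test (adjusted p = 0.998, unadjusted p = 0.182), where 0.0912% of the tested probe sets of B passed.

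On C the Slc2a1 probe set AA944077_s_at had a signal of 1252.5 and 1150.4 in congenic kidneys, against 1152, 1465 and 1457.5 in Dahl S kidneys. The groups overlapped, since Dahl S kidney 1 lay between the congenic kidneys. The means were 1201.5 ± 72.2 in congenic kidneys (SD, n = 2) and 1358 ± 178.6 in Dahl S kidneys (SD, n = 3), a log2 difference of −0.17 (SE 0.16, 95% confidence interval −0.55 to 0.21; limma adjusted p = 0.885, unadjusted p = 0.328). None of the 4420 probe sets tested on C passed limma's threshold, while 274 had an unadjusted p under 0.05. The confidence limits allow a difference of either sign on both designs.

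On A the probe set M13979_at of Slc2a1 had a signal of 866 in kidney 4 and 789 in kidney 5, against 736, 553 and 645 in Dahl S kidneys (644 ± 91.5, SD, n = 3), so that both lay above the Dahl S kidneys. Its other probe set there, S68135_s_at, had 1832 in kidney 4 and 1256 in kidney 5, against 1589, 1730 and 1185 in Dahl S kidneys (1501 ± 282.8), with kidney 4 above the Dahl S range and kidney 5 inside it. By kidney number, the 4 Slc2a1 probe sets therefore shared no order. Kidney 4 was the highest of the 5 on 3 of them and kidney 2 on C. The strain of kidney 4 on A is unsettled, so its number need not stand for the same strain on every design. On B, where Slc2a1 had its higher congenic values, the 2 of 4 glomerular markers measured there, Podxl, which was tested, and Wt1, which was not, summed to 5470 and 3374 in congenic kidneys, against 2691 to 3239 in Dahl S kidneys. Podxl was above its Dahl S range in both congenic kidneys. Wt1 was above its range in kidney 4 and below it in kidney 5, at 185.7 against 221.5 to 236.6 in Dahl S kidneys. Signal of the alpha globin gene Hba-a1 on B was 83698 and 92415 in congenic kidneys, against 75457 to 91030 in Dahl S kidneys. The collecting duct was measured on B by Slc4a1 alone, with 7001 and 8711 in congenic kidneys, against 7768 to 8366 in Dahl S kidneys. The summed leukocyte markers lay within the Dahl S range in both congenic kidneys. Of the 3 genes in that sum, Laptm5 and C1qa were below their Dahl S ranges in kidney 4. They had 1413 and 1491 there, against lowest Dahl S values of 1515 and 1809, while Fcer1g was within its range. The GAPDH ratio on B was 1.07 and 1.17 in congenic kidneys, against 1.11 to 1.18 in Dahl S kidneys. The part of these in the Slc2a1 values was not tested.

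On C, where Slc2a1 had its lower congenic mean, all 8 sums had at least 1 congenic kidney outside the Dahl S range. The 4 measured of 10 proximal tubule markers summed to 96165 and 83538 in congenic kidneys 4 and 5, against 91399 to 108688 in Dahl S kidneys. Miox made up most of that sum, with 74246 and 65328. It was within its Dahl S range in kidney 4 and below it in kidney 5, as was Gatm, which was not tested. Ggt1 was below its range in both congenic kidneys, while Slc22a8 was above its range in kidney 4 and below it in kidney 5. Kidney 5 was above the Dahl S range for the distal convoluted tubule (measured by Calb1 alone) and skeletal muscle and below it for leukocytes. In that leukocyte sum Cd74 alone was below its range in kidney 5, at 2200 against 3796 to 5703. Laptm5 was within its range there and below it in kidney 4, and Ptprc, not tested, was within its range in both. Of the muscle markers Myh4 alone was tested and above its range in kidney 5, while Tnnt3 was under the floor. Kidney 4 was above the Dahl S range for the late proximal tubule (Slc7a13 alone), the collecting duct (Aqp4 alone) and the glomerulus (Podxl alone). Podxl had 1887 and 1246 in congenic kidneys, against 777 to 1327 in Dahl S kidneys. Alb, the liver marker measured, was above the Dahl S range in both, at 52.4 and 69.2 against 31.8 to 40.8 in Dahl S kidneys, all under the floor. The GAPDH ratio on C was 1.05 in both congenic kidneys, against 1.09 to 1.11 in Dahl S kidneys. The part of these in the Slc2a1 values on C was not tested.

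**Figure D3:**
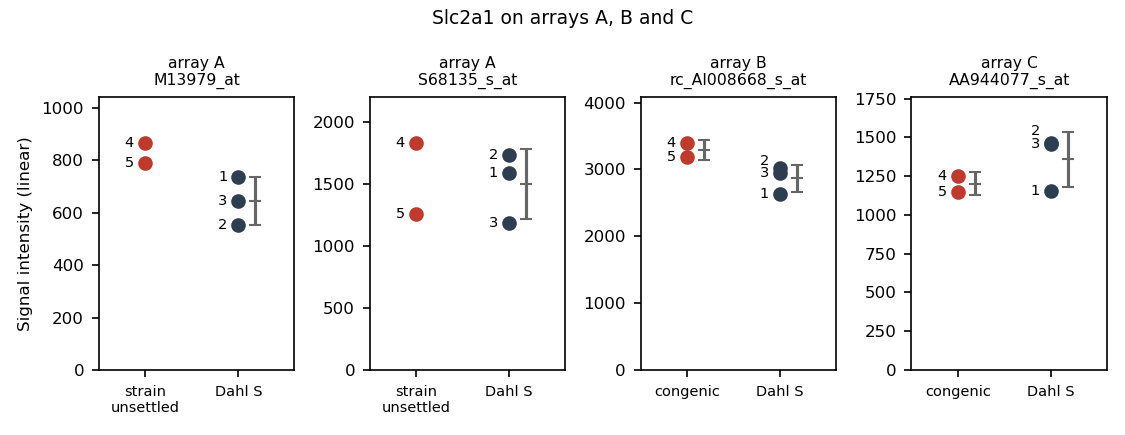
Linear signal intensity of the 4 Slc2a1 probe sets, each with its own axis from 0. Numbered points are kidneys, with kidneys 4 and 5 on the left (strain unsettled on A, congenic on B and C) and Dahl S kidneys on the right, and bars are mean and SD (n = 2 congenic, n = 3 Dahl S). Kidneys 4 and 5 are above all Dahl S kidneys on the first panel of A and on B, and the congenic kidneys overlap the Dahl S kidneys on C.

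In the promoters of the 10 members 5 motifs were searched on both strands, and the promoters of Slc2a1 and Slc34a1, which hold matches, were picked for printing after the search. That of Slc2a1 is shown because this gene carries the strain comparison. The 300 bases around its annotated start, from 250 before to 50 after it, lie at chr5:138002272-138002571 on the + strand of assembly GRCr8 in RefSeq. Capitals mark matches to the GC box, GGGCGG on either strand, a motif that the factor Sp1 can bind.
Slc2a1: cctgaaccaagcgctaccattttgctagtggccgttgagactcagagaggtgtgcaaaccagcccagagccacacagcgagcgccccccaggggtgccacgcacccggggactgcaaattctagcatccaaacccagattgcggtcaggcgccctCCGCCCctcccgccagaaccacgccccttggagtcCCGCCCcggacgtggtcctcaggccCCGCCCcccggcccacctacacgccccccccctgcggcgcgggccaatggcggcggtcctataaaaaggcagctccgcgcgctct
The 3 matches, all to the reverse complement CCGCCC, begin 95, 60 and 35 bases before the start, and none overlaps another. This motif is in 33.1% of all 33469 promoter windows of that length, and of the 10 member promoters that of Slc2a1 alone holds it. A match to the TATA box, TATAAA, is in 3 of the 10 member promoters, those of Slc13a1, Slc2a1 and Slc34a1, and in 14.2% of all windows. It begins after the annotated start in Slc2a1, 43 bases before it in Slc34a1, and 203 and 201 bases before it in Slc13a1. The HNF4 half-site, AAAGTCCA, is in 0 of the 10 and in 1.37% of all windows. A match is a description of the letters and not evidence of a bound site.

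Slc2a2 (GLUT2), the basolateral carrier through which glucose leaves early proximal tubule cells, had a probe set with a mean under the median of all values of A, so it was not tested. Its signal was 269 in kidney 4 and 349.7 in kidney 5, against 270, 319 and 223 in Dahl S kidneys (271 ± 47.9, SD, n = 3). Kidney 5 was above the Dahl S kidneys and kidney 4 among them. Slc2a5 (GLUT5), the fructose carrier of the brush border in the late proximal tubule, was measured by a pair of probe sets. D13871_s_at had 2252 in kidney 4 and 2520 in kidney 5, against 1984, 2109 and 2310.2 in Dahl S kidneys (2135 ± 164.5). D28562_s_at had 2419.5 in kidney 4 and 1444 in kidney 5, against 1903, 1949 and 1458 in Dahl S kidneys (1770.1 ± 271.5). Kidney 5 was the highest of the 5 kidneys on the first of these and the lowest on the second, so the Slc2a5 probe sets did not order the kidneys alike. With median scaling kidney 5 lay within the Dahl S range on the second, and kidney 4 above it on both.

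Slc34a1 (NaPi-IIa) is the brush border carrier that takes up most of the filtered phosphate, and it had 5 probe sets, all on A and all tested. The probe set rc_AI105198_i_at had a signal of 51193 in kidney 4 and 33515 in kidney 5, against 54434, 62655 and 48780 in Dahl S kidneys (55289.7 ± 6977, SD, n = 3). AB013455_g_at had 33769 in kidney 4 and 27629.9 in kidney 5, against 34413, 37199 and 34801 in Dahl S kidneys (35471 ± 1509). AB013455_at had 18229 in kidney 4 and 14021 in kidney 5, against 18423, 19920.3 and 15829 in Dahl S kidneys (18057 ± 2070.0). On these 3 probe sets kidney 5 was the lowest of the 5, at 0.609, 0.779 and 0.780 of the geometric Dahl S mean, and kidney 4 was near the Dahl S values, at 0.931, 0.953 and 1.01 of it. Kidney 5 was the lowest of the 5 under the other scalings too, but with quantile normalization its log2 difference was −0.50 in place of −0.71 on the first and −0.20 in place of −0.36 on the second. Kidney 4 of AB013455_g_at was below the Dahl S range as deposited (log2 difference −0.07) and above it with quantile normalization (0.06) and median scaling (0.08). The sum of proximal tubule markers in kidney 5 lay within the Dahl S range, but its largest part was Kap, at 43926, and the single markers differed. Aqp1, Lrp2 and Slc22a6 were below the Dahl S range in kidney 5, at 16752, 12132 and 4282, against lowest Dahl S values of 17936, 13948 and 4554. Cubn was above it, at 5512 against 3170 to 3970 in Dahl S kidneys, and Kap, Anpep, Ggt1 and Gatm were within it. The 4 measured of 5 thick ascending limb markers summed to 44471.5 in kidney 5, against 44579.5 to 57965 in Dahl S kidneys, and the 3 measured of 5 blood markers to 35859, against 23485 to 33976. Of the thick ascending limb markers, Kcnj1 and Slc12a1 were below their Dahl S ranges in kidney 5. Umod, the largest part of that sum, and Egf were within theirs. The part of these in the Slc34a1 values of kidney 5 was not tested.

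The remaining Slc34a1 probe sets did not share that order. The probe set rc_AA891726_s_at had 12292 in kidney 4 and 11790.2 in kidney 5, against 11227.5, 14155 and 13342 in Dahl S kidneys (12908 ± 1511), and both lay within the Dahl S range (kidney 5 below it with median scaling). AB013453_at had 3611 in kidney 4 and 3861.5 in kidney 5, against 3046, 2837 and 2984 in Dahl S kidneys (2955 ± 107.3), where both lay above it, at 1.22 and 1.31 of the geometric Dahl S mean. The disagreement in direction lies within 1 gene and the same 5 RNA samples. AB013453_at and the AB013455 probe sets carry the names of separate sequence records. Whether this bears on the disagreement was not tested. Among Dahl S kidneys, in the values as deposited, kidney 2 was the highest on 4 of the 5 Slc34a1 probe sets and on 8 of the 17 tested member probe sets, where it was the highest for 33.2% of all tested probe sets. Kidney 1 was the highest on 5 of the 17 (25.4% of all tested probe sets) and kidney 3 on 4 (41.4%).

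**Figure D4:**
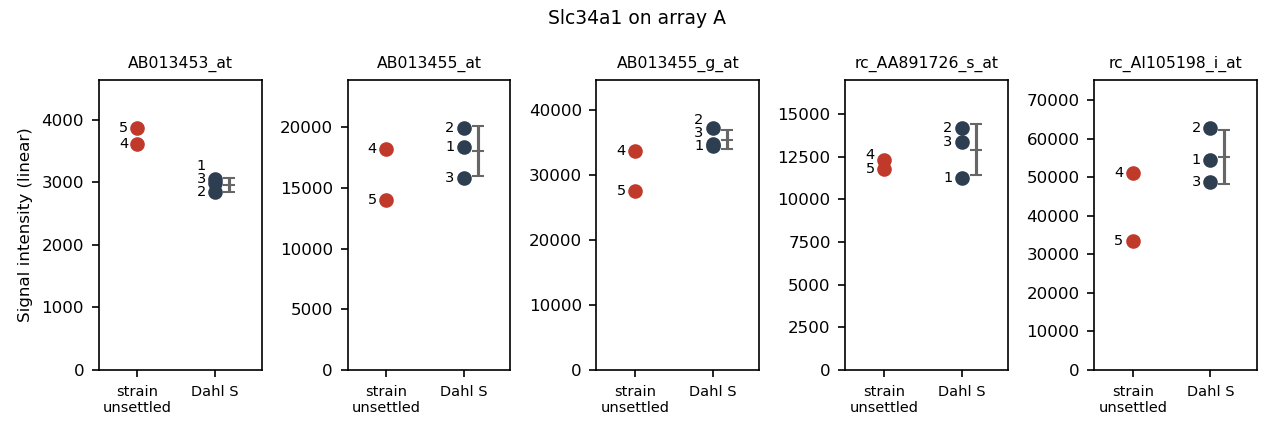
Linear signal intensity of the 5 Slc34a1 probe sets of array A, each with its own axis from 0. Numbered points are kidneys, kidneys 4 and 5 (strain unsettled) on the left and Dahl S kidneys on the right, with the Dahl S mean and SD (n = 3) as a bar. Kidney 5 is the lowest kidney on 3 probe sets and, in the values as deposited, the highest on AB013453_at, at 3861.5 (kidney 4 is with median scaling).

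The promoter of Slc34a1 is shown because it is the main phosphate carrier of the brush border and because its probe sets differed in direction. Its 300 base window, from 250 before to 50 after the start, lies at chr17:9238934-9239233 on the - strand of GRCr8 in RefSeq and is printed in the direction of the gene. Capitals mark GTTAAT on either strand, the core of the sequence bound by HNF1 factors, which drive many proximal tubule genes.
Slc34a1: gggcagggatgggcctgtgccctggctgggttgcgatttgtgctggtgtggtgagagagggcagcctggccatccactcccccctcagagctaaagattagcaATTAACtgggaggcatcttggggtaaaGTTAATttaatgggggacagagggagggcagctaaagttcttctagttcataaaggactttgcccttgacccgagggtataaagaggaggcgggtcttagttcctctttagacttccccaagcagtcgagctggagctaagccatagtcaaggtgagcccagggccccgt
The matches begin 147 bases (reverse complement ATTAAC) and 120 bases (GTTAAT) before the start and do not overlap. This core is in 7.45% of all promoter windows and in 1 of the 10 member promoters. The full HNF1 palindrome, which is the core, any base and the reverse complement of the core, is in 0 of the 10 and in 0.00299% of all windows. No match to the GC box is in the Slc34a1 window, and its match to the TATA box overlaps neither HNF1 match. No match in another window says only that these letters are not there.

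Slc17a1 (NPT1), named for phosphate transport and also a carrier of organic anions such as urate, had 3 probe sets on A. U28504_at had 1754 in kidney 4 and 1647 in kidney 5, against 1807, 1879 and 1378.5 in Dahl S kidneys (1688 ± 270.7, SD, n = 3), with kidneys 4 and 5 within the Dahl S range (kidney 4 above it with median scaling). U28504_g_at had 538 in kidney 4 and 1026 in kidney 5, against 879.7, 875 and 726 in Dahl S kidneys (827 ± 87.4), with kidney 4 below the Dahl S range and kidney 5 above it. The third, rc_AA892920_at, was below the floor on all 5 arrays, with values from 10.3 to 66.7, and gives no order of kidneys.

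Slc13a1 (NaS1) takes up sulfate with sodium at the brush border, and Slc26a1 (SAT1) exchanges sulfate for other anions at the basolateral side. Slc13a1 had a signal of 375 in kidney 4 and 411 in kidney 5, against 533, 456 and 358 in Dahl S kidneys (449 ± 87.4, SD, n = 3). Kidneys 4 and 5 lay within the Dahl S range, whose coefficient of variation of 19.5% was the highest among the members tested. Slc26a1 had 2446 in kidney 4 and 3219 in kidney 5, against 2485, 2846 and 2921 in Dahl S kidneys (2751 ± 232.9), with kidney 4 the lowest of the 5 and kidney 5 the highest. With median scaling kidney 4 lay within the Dahl S range (log2 difference −0.02 in place of −0.17).

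Slc13a2 (NaDC1) takes up citrate and other dicarboxylates with sodium at the brush border, and it is the 1 member on chromosome 10, the chromosome of the congenic segment. Whether it lies inside the segment is not given in the sources used here. Its probe set AF058714_at had a signal of 1157 in kidney 4 and 502 in kidney 5, against 996, 1235 and 947 in Dahl S kidneys (1059 ± 154.3, SD, n = 3). Kidney 5 stood at 0.477 of the geometric Dahl S mean (log2 difference −1.07) while kidney 4 stood among the Dahl S kidneys at 1.10 of it (above them with median scaling), a spread of 2.46-fold that was the widest of the members tested. A further probe set, X59677mRNA_s_at, is annotated to Slc13a2 and Muc3 together, and was left out of the members for that reason. Its signal was 4967 in kidney 4 and 5682.5 in kidney 5, against 4675, 5810 and 5097 in Dahl S kidneys, and kidney 5 was not low there. Slc13a2 was not measured as a member on B or C, so no strain test of it was made.

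A list of 49 further genes that handle these solutes, regulate their carriers or use what they bring in was read in the same way, with the brightest probe set of each gene. On A, 20 of these were measured and 18 tested, and kidneys 4 and 5 lay outside the Dahl S range on the same side for 9 of them, 4 above and 5 below, where 19.0% of all tested probe sets did. These were 2 above and 4 below with quantile normalization and 3 above and 3 below with median scaling. On B, 13 were measured and 11 tested, of which none passed the adjusted threshold or an unadjusted p under 0.05 (3.49% of all tested probe sets had such a p). Of these, 6 had a higher mean in congenic kidneys (48.6% of all tested probe sets did) and 5 a lower one, with a median log2 difference of 0.05, against −0.005 over all tested probe sets. On C, 12 were measured and 10 tested, of which none passed limma's adjusted threshold and 2 had an unadjusted p under 0.05 (6.2% of all tested probe sets). There 5 had a higher mean in congenic kidneys (47.9% of all tested probe sets did) and 5 a lower one, with a median of 0.00 against −0.01.

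On B the listed genes with the smallest p were the anion exchanger Slc26a6, the phosphate carrier Slc34a3 (NaPi-IIc), the sulfate carrier Slc13a4 and the scaffold Nherf2. Slc26a6 had 1393 and 1486 in congenic kidneys, against 1066, 1299 and 1105 in Dahl S kidneys (log2 difference 0.32, SE 0.15, limma adjusted p = 0.998). Slc34a3 had 3345 and 2795 in congenic kidneys, against 2730.1, 2727 and 2334 in Dahl S kidneys (log2 difference 0.24, SE 0.15, adjusted p = 0.998). Both had congenic values above all Dahl S values, which 7.73% of the tested probe sets of B had as well. Slc13a4 had 821 and 668 in congenic kidneys, against 587, 699 and 614 in Dahl S kidneys, and Nherf2 3696 and 3239 against 3058, 2459.8 and 3300.1, and the groups overlapped for both.

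On C the smallest p were those of Nherf2 and Nherf1, PDZ proteins that anchor carriers at the brush border, of Slc34a2 and of the sodium pump subunit Atp1b1. Nherf2, which lies on chromosome 10, had 960.5 and 914 in congenic kidneys, against 616, 637 and 563 in Dahl S kidneys (log2 difference 0.63, SE 0.14, limma adjusted p = 0.739). Nherf1, which anchors Slc34a1 and also lies on chromosome 10, had 809 and 901 in congenic kidneys, against 616, 520.2 and 762 in Dahl S kidneys (log2 difference 0.45, SE 0.19, adjusted p = 0.788). On B, Nherf1 had 23395 and 27623 in congenic kidneys, against 22509, 23009 and 22947 in Dahl S kidneys, so its congenic values stood above all Dahl S values on both designs without passing the test. Of the tested probe sets of C, 10.2% had congenic values above all Dahl S values and 12.2% below them. Whether Nherf1 and Nherf2 lie inside the congenic segment is not given in the sources used here. G6pc1, another listed gene on chromosome 10, was tested on B, and its groups overlapped (log2 difference −0.02, SE 0.18, limma adjusted p = 0.998). Slc34a2, a phosphate carrier better known from lung and intestine, had 704 and 886 in congenic kidneys, against 1256, 856 and 1207 in Dahl S kidneys (log2 difference −0.47, SE 0.21, adjusted p = 0.794). Atp1b1 had 34079 and 30308 in congenic kidneys, against 35105, 39617 and 41330.1 in Dahl S kidneys, with no overlap (log2 difference −0.26, SE 0.15, adjusted p = 0.853).

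On A the listed genes with the largest spread among Dahl S kidneys were the inositol carrier Slc5a3, the glucose carrier Slc2a3, the FGF23 coreceptor Kl and the transcription factor Hnf4a. Slc5a3 had 1624 in kidney 4 and 733 in kidney 5, against 505, 781.5 and 796 in Dahl S kidneys (694 ± 163.9, SD, n = 3), with kidney 4 alone above them. Kl had 509 in kidney 4 and 629 in kidney 5, against 508, 749 and 695 in Dahl S kidneys, and Slc2a3 had 389 and 494, against 417, 332 and 506, within the Dahl S range for both genes. Hnf4a had 1439 in kidney 4 and 1206.5 in kidney 5, against 981, 1428 and 1288 in Dahl S kidneys, with kidney 4 just above them.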

How the data were processed

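The submitters measured total RNA from kidneys of 5-week-old rats on 15 arrays of 3 designs. The deposited values are signal intensities on a linear scale, 1 for each probe set, and the software behind them is not given in the sources used here, and whether background was subtracted is unknown. Each array had been scaled before deposit, as the mean of the values trimmed by 2% at either end lay between 1000.6 and 1001.3, and that scale was kept. Each design was handled within its own table, with control probe sets left out, a floor at the 25th percentile, log2, and a filter on the mean over 5 arrays at the median of all values. Tested were 4411 probe sets for A (of 8799), 4385 for B (of 8791) and 4420 for C (of 8789).

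Congenic and Dahl S kidneys were compared on B and C in R 4.3.3 by the moderated linear models of limma 3.58.1 (lmFit, eBayes), with Benjamini-Hochberg adjustment over all tested probe sets of the design and a threshold of 0.05. Differences are congenic minus Dahl S. The script was tested on simulated data. Gene symbols came from the platform annotation and were updated through gene identifiers to RefSeq (GRCr8): 1 symbol was given to 7006 probe sets of A, 5351 of B and 5821 of C, several symbols to 308, 38 and 45, and no symbol to 1426, 3343 and 2864. Chromosomes are those of GRCr8, and promoter sequences are RefSeq's. All 10 members had a promoter entry, and 5 motifs were searched in them, all of them reported. Named were all member probe sets, and from the list of related genes the 4 with the smallest p on B and on C and the 4 with the largest Dahl S coefficient of variation on A. G6pc1 and the genes under other observations were named besides these. Sums of 11 marker lists were read on every design, and the choice of those set beside a result was made after seeing values. The members and lists were chosen with earlier results of these data known. The number of arrays limits the precision. Alternatives were other scalings, floors, filters, variance models and leaving out each array.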

Additional observations from a re-analysis of the deposited data

How the results depend on the processing

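No paired analysis was possible because the kidneys of the compared strains carry different numbers. On B the 4 calls among all probe sets became 1 with quantile normalization, median scaling, a floor at the 10th or the 40th percentile, a filter at the 75th percentile or array weights, and 0 to 31 when 1 array was left out, with 31 without congenic kidney 5. On C the 0 calls became 2 without a filter and 1 with an intensity trend and robust variance, and 0 to 35 when 1 array was left out, with 35 without congenic kidney 5. Slc2a1 was in none of these calls. Its log2 difference stayed positive on B (0.14 to 0.25) and negative on C (−0.28 to −0.11) under every alternative run. On A the 5 member probe sets with kidneys 4 and 5 on the same side of the Dahl S range became 3 of 12 with the filter at the 75th percentile (20.8% of all tested probe sets), and 5 to 10 of 17 without 1 of the Dahl S kidneys: 6 without kidney 1 (31.8%), 5 without kidney 2 (30.2%) and 10 without kidney 3 (32.8%). They were 4 with quantile normalization (19.2%), 5 of 19 without a filter (13.7%), and 5 of 17 with median scaling or another floor (19.0%), where median scaling exchanged AB013455_g_at of Slc34a1 for D13871_s_at of Slc2a5. Of the single member values on A, 8 differences of kidney 4 and 2 of kidney 5 moved by more than the Dahl S SD. All of these were under quantile normalization or median scaling, and 140 and 146 did not move so far. The latter include the runs with another floor or filter, which left these values unchanged and so could not move them. The 3 and 2 arrays per strain, and the lack of a settled strain on A, limit what can be said of the members.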

Other observations

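On A, 9 genes of the related list had kidneys 4 and 5 on the same side of the Dahl S range, and those given here were chosen after their values were seen. Khk, the kinase that phosphorylates fructose, had 8163 and 7908.5 in kidneys 4 and 5, against 6993, 5968 and 7601 in Dahl S kidneys, and Tkfc, which phosphorylates the later product glyceraldehyde, had 4718 and 4539, against 2587, 3382 and 3267 in Dahl S kidneys. Papss1, a synthase of the activated sulfate donor, had 3716 and 4068 in kidneys 4 and 5, against 3341, 3391 and 3661.5 in Dahl S kidneys, and Papss2, of the same function, had 1418 and 1130.5, against 1086, 919 and 1121 in Dahl S kidneys. Khk and Tkfc kept both kidneys above the Dahl S range under the other scalings, while Papss1 lost this with quantile normalization and Papss2 with both.

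Pdzk1, a PDZ scaffold that binds Slc34a1 at the brush border, was lower in kidneys 4 and 5 of A, at 3436 and 3056, against 4693, 5802 and 4706.5 in Dahl S kidneys. On C its probe set had 1829 and 1645 in congenic kidneys, against 1501, 2429 and 1562.5 in Dahl S kidneys, within their range (log2 difference −0.04, SE 0.23, limma adjusted p = 0.978). The phosphate carrier Slc20a2 had 604 and 767 in kidneys 4 and 5 of A, against 924.5, 909 and 793 in Dahl S kidneys. On B it had 1546.5 and 1358 in congenic kidneys, against 1741, 1514 and 1409.5 in Dahl S kidneys, with overlap (adjusted p = 0.998).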
